A study of Homo sapiens with 16 samples.

Results

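The 10 antiviral genes of the tripartite motif (TRIM) family described here were followed through H3K27ac, the histone H3 acetylation found at active promoters and enhancers. They were TRIM5, TRIM22, TRIM34, TRIM14, TRIM21, TRIM26, TRIM38, TRIM56, TRIM69 and PML. Their members were the windows of the table of H3K27ac tags that were assigned to 1 of these 10 genes and lay within 50000 bp of its transcription start site (TSS). This gave 55 of 151654 regions, each 1000 bp wide. Of the 55, 45 had enough tags to be tested (2 or more of the 8 libraries with 10 counts or more), and the 10 untested regions held at most 15 counts in any library. TRIM14 had 12 regions, TRIM56 had 8, TRIM26 had 7, PML, TRIM22 and TRIM69 had 5 each, TRIM5 and TRIM34 had 4 each, TRIM38 had 3 and TRIM21 had 2. Of the 55 windows, 27 overlapped another one, so neighbouring regions can share tags.

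All libraries came from THP-1, a human monocytic leukemia cell line. WT cells, whose genotype label is Cas9 only, and USP18KO cells, in which CRISPR had disrupted USP18, were left untreated or given IFNα at 1000 U/ml for 6 h, with 2 H3K27ac libraries in each of the 4 groups. The label and the protocol differ on whether WT cells also carried a control guide, and knockout lines were grown from sorted single cells, so that genotype and clone cannot be told apart. The libraries held 9046141 to 12935454 tags in the regions. Of 8 myeloid markers, the most highly acetylated was SPI1, at 64.6 to 131 CPM (counts scaled to the size of each library), and the other 7 lay between 1.55 and 56.7 CPM, whereas the T cell gene CD3D, the erythroid genes GATA1 and HBB and the epithelial gene EPCAM had no region. Regions near the B cell genes MS4A1 and CD79A reached 3.93 to 9.48 CPM, and their part in any result was not tested. The region at the USP18 TSS carried 7.62 to 8.47 CPM in the untreated libraries of both genotypes, which does not test the edit, since the window covers the promoter.

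TRIM proteins share a RING finger, B-box and coiled-coil architecture, and most act as E3 ubiquitin ligases. Several bind viral proteins directly, others tune the sensors of viral nucleic acid, and PML builds the nuclear bodies that bear its name. Many are interferon-stimulated genes (ISGs): IFNα engages its receptor, the kinases JAK1 and TYK2 phosphorylate STAT proteins, and the complex ISGF3, which contains STAT2 and IRF9, binds the interferon-stimulated response element (ISRE). USP18 binds the receptor subunit IFNAR2 and limits this signaling.

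The ISRE core GAAANNGAAA was searched on both strands because it is the element through which ISGF3 acts. It was found in the window nearest the TSS, called the TSS region, of 7 of the 10 genes. The following stretches of hg38 are shown because they lie in the TSS regions whose acetylation is compared below. Each is written 5′ to 3′ on the strand of the gene, with the core in capitals. A core that reads TTTC first is the same element on the opposite strand.
TRIM5 (chr11:5685092-5685101, minus strand, 13 bp after the TSS): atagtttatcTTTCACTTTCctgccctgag
TRIM34 (chr11:5624911-5624920, plus strand, 61 bp before the TSS): gccccaaaaaTTTCACTTTCatttctcagg
TRIM14 (chr9:98119239-98119248, minus strand, 110 bp after the TSS): acggccgaggTTTCGGTTTCccttgggagc
TRIM21 (chr11:4393670-4393679, minus strand, 22 bp after the TSS): agcggaaactGAAAGTGAAAtagggagctg
TRIM26 (chr6:30213591-30213600, minus strand, 101 bp before the TSS): tcccgcctgaTTTCAGTTTCcatttcgctg
TRIM69 (chr15:44736466-44736475, plus strand, 109 bp after the TSS): ctaatgagggTTTCTCTTTCtcttaagcaa
PML (chr15:73994253-73994262, plus strand, 415 bp before the TSS): agagctatctTTTCTGTTTCaagtgtcccc

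The coordinates are those of the capitals. TRIM5 and TRIM34 carried the same 10 bases in different flanks, and TRIM21 and TRIM26 each had a second core that overlapped the one shown. Of the 21 tested member regions within 3000 bp of a TSS, 10 (47.6%) held the core, against 11.5% of all 28847 such regions tested, and of the 24 member regions farther away 7 (29.2%) did, against 18.8%. These are counts of windows, and overlapping windows can hold the same core, so there were fewer cores than windows. The TRIM5 windows 6 and 283 bp after the TSS shared a core. So did the TRIM14 windows at 10444, 10741 and 11156 bp, and the TRIM69 windows at 48105 and 48501 bp. The TSS regions of TRIM22, TRIM38 and TRIM56 had no match, which says only that these letters were not in those windows. The TRIM22 window held a match to the GAS core TTCNNNGAA, the element of STAT dimers, at chr11:5689741-5689749 on the plus strand: tttctttcacTTCTGAGAAtttaactttc. GAS cores occurred in 20.0% of the 45 tested member regions and in 25.6% of all regions tested, and NF-kB motifs in 17.8% and 13.9%. In the 250 bases before the RefSeq start (GRCh38.p14), 8 of the 10 genes could be matched, and 5 of those 8 held an ISRE core (TRIM5, TRIM14, TRIM26, TRIM34 and TRIM69), against 3.02% of 35116 promoters. These are the same cores as those printed above, because RefSeq places the starts at other positions than the TSS from which the table counts its distances.

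In USP18KO cells, IFN raised H3K27ac at the TSS of 9 of the 10 genes, by 1.52 to 3.88 on the log2 scale, against 4.63% of all regions within 3000 bp of a TSS, and TRIM38 stayed under the fold threshold at 0.71. In WT cells, 2 of the 10 TSS regions, those of TRIM22 and TRIM34, were called higher, against 0.458%. By adjusted p alone, without the fold threshold, 10 of 10 rose in USP18KO and 6 of 10 in WT cells. The shares of 4.63% and 0.458% do not apply to this looser rule. No share over all regions is given for it, so these 2 counts have no background beside them. A region was called when its log2 fold change exceeded 1 in size and its adjusted p was under 0.05 by the quasi-likelihood test of edgeR, adjusted over all 123276 tested regions by the Benjamini-Hochberg method. Adjusted p-values below are from that test, levels are CPM in a 1000 bp window with TMM scaling, and the p-values measure the spread between the 2 libraries of a group, which the methods of the study call biological replicates.

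**Figure D1:**
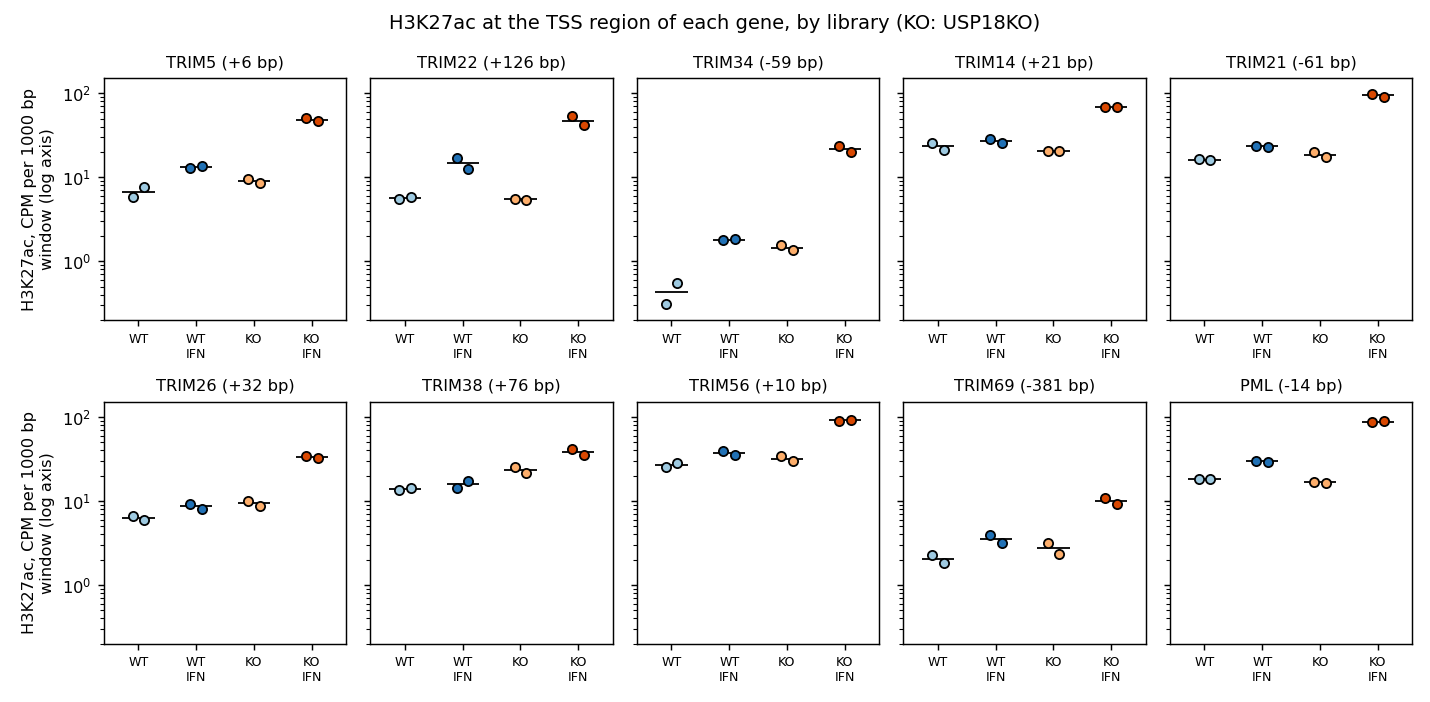
H3K27ac in CPM per 1000 bp window (log axis) at the TSS region of each gene, with 1 point per library, 4 groups of 2 libraries and a line at each group mean. In every panel both IFN treated USP18KO libraries lie above all 6 other libraries, for TRIM5 at 50.5 and 46.3 CPM.

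TRIM5, TRIM22 and TRIM34 restrict viruses and lie in a cluster on chromosome 11. TRIM5, which recognises retroviral capsids, had its TSS region at chr11:5684603-5685603, over the first exon. Replicates 1 and 2 gave 5.89 and 7.62 CPM in untreated WT cells, 12.8 and 13.6 CPM in IFN treated WT cells, 9.60 and 8.57 CPM in untreated USP18KO cells and 50.5 and 46.3 CPM in IFN treated USP18KO cells. The treated libraries lay above the untreated ones in both genotypes without overlap. On the log2 scale it changed with IFN by 0.96 in WT cells (SE 0.17, adjusted p = 1.4e-04) and 2.41 in USP18KO cells (SE 0.14, adjusted p = 2.9e-27), and the difference between these effects was 1.45 (SE 0.23, adjusted p = 6.0e-07). An overlapping window in the first TRIM5 intron, 283 bp after the TSS, was called in WT cells too, with log2 fold changes of 1.06 (SE 0.17) in WT and 2.51 (SE 0.13) in USP18KO cells. It was lost in WT cells without WT_untreated replicate 1 (0.90) or without WT_IFN replicate 2 (0.98), so the TRIM5 call in WT cells sat at the threshold. Another window, 1269 bp after the TSS, rose by 2.40 (SE 0.27) in USP18KO cells, from levels of 1.25 to 2.18 CPM to 7.90 and 10.5 CPM, and 61.5% of its 32-base words occurred elsewhere in hg38.

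TRIM22, an ISG that restricts HIV and influenza virus, had its TSS region at chr11:5689213-5690213, over the 5′ UTR of the gene and inside an intron of a longer TRIM5 transcript. Its levels were 5.58 and 5.90 CPM in untreated WT, 16.9 and 12.5 CPM in IFN treated WT, 5.59 and 5.29 CPM in untreated USP18KO and 53.1 and 41.4 CPM in IFN treated USP18KO cells. Untreated libraries of the genotypes overlapped, and the treated ones did not. Among the TSS regions without cores of the ISRE, TRIM22 had the largest response, with log2 fold changes of 1.36 in WT (SE 0.18, adjusted p = 5.6e-08) and 3.12 in USP18KO cells (SE 0.16, adjusted p = 7.8e-31), which differed by 1.76 (SE 0.26, adjusted p = 8.1e-08). Its 3 tested intronic regions, 11084 to 12239 bp after the TSS, were not called in any comparison and stayed between 0.998 and 5.68 CPM.

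TRIM34, which acts together with TRIM5 against lentiviral capsids, was the weakest TSS region in WT cells. At chr11:5624418-5625418 it gave 0.31 and 0.54 CPM in untreated WT cells, 1.78 and 1.85 CPM in IFN treated WT cells, 1.57 and 1.35 CPM in untreated USP18KO cells and 23.3 and 20.2 CPM in IFN treated USP18KO cells. The untreated WT values rested on 2.5 and 5.5 tags. IFN raised it by 3.88 in USP18KO cells (SE 0.23, adjusted p = 3.5e-26), the largest rise of all 45 tested regions there. The log2 fold change in WT cells was 2.03 (SE 0.49, adjusted p = 0.014). This call was lost when any 1 of the 4 WT libraries was left out, with adjusted p-values of 0.34 without WT_untreated replicate 1, 0.095 without WT_untreated replicate 2, 0.11 without WT_IFN replicate 1 and 0.12 without WT_IFN replicate 2. With values ending in 0.5 rounded to the even number it was 2.20. The difference of the IFN effects was 1.85 (SE 0.68, adjusted p = 0.059) and was not called. The window also lies in an intron of the TRIM6-TRIM34 readthrough gene, so the signal cannot be assigned to 1 transcript. A second pair of overlapping windows lay at another start of the gene, 132 bp before and 147 bp after that TSS, and rose by 1.31 (SE 0.35) and 1.38 (SE 0.37) in USP18KO cells, to no more than 3.66 CPM.

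TRIM14, TRIM21, TRIM26, TRIM38 and TRIM56 act within the sensing and signaling pathways of innate immunity. TRIM21, a cytosolic antibody receptor and E3 ligase, reached the highest mean level of the 10 TSS regions after IFN in USP18KO cells. At chr11:4393257-4394257 its levels were 16.6 and 15.9 CPM in untreated WT, 23.3 and 23.2 CPM in IFN treated WT, 19.7 and 17.3 CPM in untreated USP18KO and 97.1 and 90.9 CPM in IFN treated USP18KO cells. No 2 of these groups overlapped. The log2 fold change was 0.52 in WT (SE 0.13, adjusted p = 0.020), below the fold threshold, and 2.34 in USP18KO cells (SE 0.11, adjusted p = 5.6e-33). The difference of 1.82 (SE 0.17, adjusted p = 1.2e-14) was the largest that was called among the member regions.

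TRIM26, an E3 ligase that acts on IRF3, had its TSS region at chr6:30212962-30213962. It gave 6.61 and 5.99 CPM in untreated WT cells, 9.32 and 8.00 CPM in IFN treated WT cells, 10.0 and 8.66 CPM in untreated USP18KO cells and 34.2 and 32.2 CPM in IFN treated USP18KO cells. Treated libraries lay above untreated ones in both genotypes. IFN gave a log2 fold change of 0.46 in WT (SE 0.19, adjusted p = 0.40) and 1.82 in USP18KO cells (SE 0.15, adjusted p = 7.3e-19), a difference of 1.36 (SE 0.25, adjusted p = 1.3e-05). The overlapping window 726 bp before the TSS had no ISRE core and rose by 1.87 (SE 0.14) in USP18KO cells. Its 3 tested windows inside the gene, 11514 to 21328 bp after the TSS, were not called in any comparison.

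TRIM56, an E3 ligase of the cGAS, STING and TLR3 pathways, was the most acetylated of the 10 TSS regions in 3 of the 4 groups. At chr7:101084949-101085949 it carried 25.1 and 28.1 CPM in untreated WT, 39.5 and 35.1 CPM in IFN treated WT, 33.9 and 29.8 CPM in untreated USP18KO and 90.4 and 92.6 CPM in IFN treated USP18KO cells. After IFN in USP18KO cells TRIM21 and TRIM56 overlapped. On the log2 scale the IFN effect was 0.48 in WT (SE 0.11, adjusted p = 0.0088) and 1.52 in USP18KO cells (SE 0.10, adjusted p = 2.8e-23). The difference of 1.03 (SE 0.15, adjusted p = 9.9e-08) lay just above the threshold, and was 0.90 when counts were scaled by their sum and 0.97 when scaled by the tag totals of the libraries. It was also lost without replicate 2 of any 1 of the 4 groups (0.95 to 0.99). The low window 9583 bp before the TSS (0.31 to 1.78 CPM) was higher in USP18KO than in WT cells after IFN, by 1.88 (SE 0.66, adjusted p = 0.016).

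TRIM38, an E3 ligase that acts on TAB2 and TLR adaptors, was the TSS region with the smallest IFN effect in USP18KO cells. At chr6:25962265-25963265 its levels were 13.5 and 14.2 CPM in untreated WT, 14.1 and 17.3 CPM in IFN treated WT, 25.5 and 21.8 CPM in untreated USP18KO and 41.8 and 35.7 CPM in IFN treated USP18KO cells. The WT groups overlapped, and both untreated USP18KO libraries lay above all 4 WT libraries. The IFN effect was 0.18 in WT (SE 0.15, adjusted p = 0.80) and 0.71 in USP18KO cells (SE 0.12, adjusted p = 1.5e-06), and their difference was 0.53 (SE 0.19, adjusted p = 0.057).

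**Figure D2:**
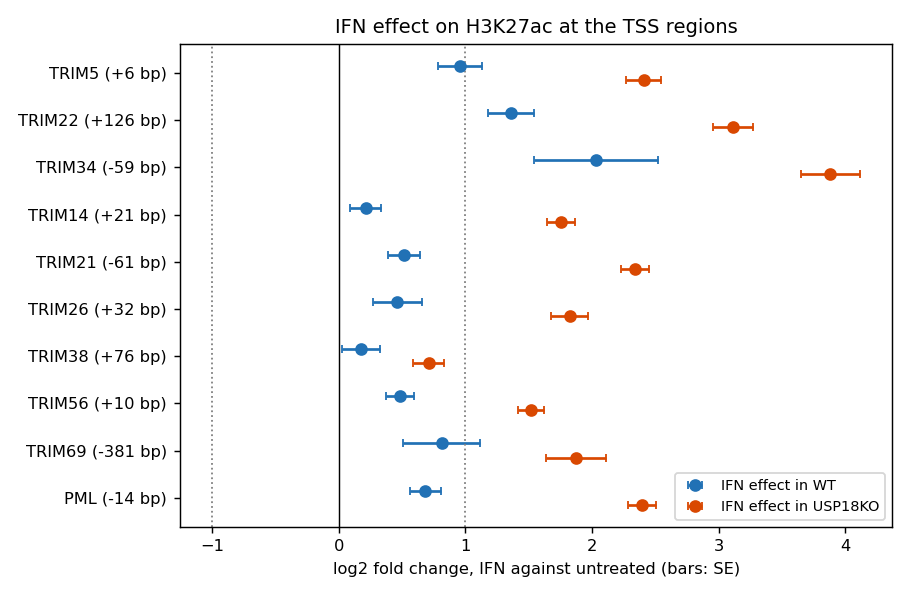
IFN effect on H3K27ac (log2 fold change, IFN against untreated) at the TSS regions in WT and USP18KO cells, with SE bars and dotted lines at the fold threshold. The effect in USP18KO cells lies to the right of that in WT cells for all 10 genes, and TRIM38 alone stays below 1 there, at 0.71.

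TRIM69, an interferon-induced member known for restricting vesicular stomatitis virus, had low TSS levels. At chr15:44735481-44736481 they were 2.27 and 1.82 CPM in untreated WT, 3.96 and 3.18 CPM in IFN treated WT, 3.14 and 2.31 CPM in untreated USP18KO and 10.8 and 9.29 CPM in IFN treated USP18KO cells. Treated and untreated libraries did not overlap within a genotype. IFN gave 0.81 in WT (SE 0.30, adjusted p = 0.30) and 1.87 in USP18KO cells (SE 0.24, adjusted p = 1.7e-10), and the difference of 1.06 (SE 0.40, adjusted p = 0.070) was not called. The overlapping window 811 bp before the TSS rose by 2.25 (SE 0.22) in USP18KO cells and its difference of 1.53 (SE 0.39, adjusted p = 0.0026) was called. That window held 5 matches to the ISRE core, of which 2 overlapped each other. The low window 2187 bp after the TSS held 2 and 0 tags in the untreated WT libraries and was not called in any comparison.

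PML had its TSS region at chr15:73994159-73995159, where the start of STOML1 lies 37 bp from the centre, so the signal cannot be assigned to 1 of the 2 genes. Its levels were 18.5 and 18.3 CPM in untreated WT, 30.0 and 29.1 CPM in IFN treated WT, 16.9 and 16.5 CPM in untreated USP18KO and 86.4 and 89.4 CPM in IFN treated USP18KO cells. Untreated USP18KO libraries lay slightly below untreated WT ones, and IFN turned that order around. The IFN effect on the log2 scale was 0.68 in WT (SE 0.12, adjusted p = 8.2e-05) and 2.39 in USP18KO cells (SE 0.11, adjusted p = 2.2e-33), a difference of 1.71 (SE 0.17, adjusted p = 6.2e-14). An intronic window 2440 bp after the TSS rose by 1.03 (SE 0.28, adjusted p = 0.0028), from 2.44 and 2.12 to 5.15 and 4.22 CPM, a level that WT cells also reached (3.10 to 5.17 CPM). This call was lost under both other scalings of the counts, with 0.90 for their sum, without USP18KO_untreated replicate 2 (0.94) and without USP18KO_IFN replicate 1 (0.84). The other 3 PML regions, 16403 to 42410 bp after the TSS, were not called in any comparison.

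Counted over all 45 tested regions, IFN in WT cells gave 3 higher and 0 lower calls. The 3 were the TRIM22, TRIM34 and TRIM5 windows described above, or 6.67% of the members, and of all regions tested 0.344% were called higher and 0.0381% lower in this comparison. The count of 0 lower regions came from edgeR; DESeq2 also gave 0, and 5 member regions had a negative change at an unadjusted p under 0.05. IFN in USP18KO cells gave 19 higher calls in 9 genes and 4 lower calls, all in TRIM14, against 7.14% and 4.28% of all regions. Near the TSS (within 3000 bp), 17 of 21 member regions were higher in USP18KO cells with IFN, against 4.63% of all such regions, and 3 of 21 were in WT cells, against 0.458%. The difference of the IFN effects was called larger in USP18KO cells in 14 regions and smaller in 2, against 4.66% and 2.51% of all regions, and near the TSS in 13 of 21, against 3.26%. The median log2 fold change of the 45 regions was 0.24 for IFN in WT and 0.71 for IFN in USP18KO cells, beside -0.01 and -0.01 over all regions tested. In bulk chromatin, more cells carrying the mark and more of the mark per cell cannot be told apart.

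**Figure D3:**
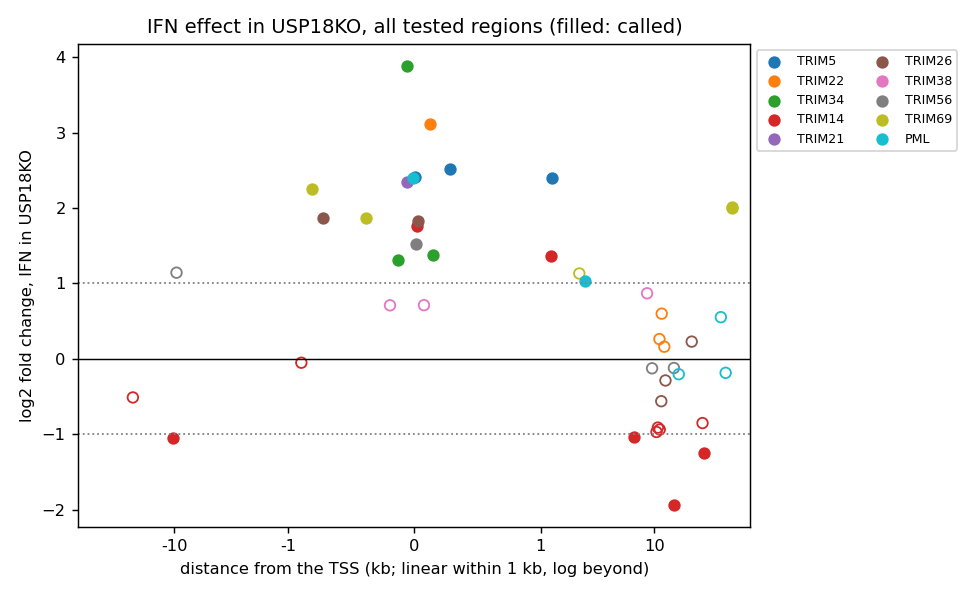
IFN effect in USP18KO cells (log2 fold change) against distance from the TSS (kb, linear within 1 kb and log beyond) for the 45 tested regions, coloured by gene, with filled points for called regions. The 19 higher calls lie near the TSS except for the pair of TRIM69 windows beyond 48 kb, and the 4 lower calls are TRIM14 regions.

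TRIM14, an adaptor without a RING finger that acts with MAVS and cGAS, was the gene whose regions moved in opposite directions. The regions other than its TSS region and the window 895 bp before it were named after their values were seen. At the TSS (chr9:98118832-98119832) the levels were 25.4 and 21.1 CPM in untreated WT, 28.4 and 25.3 CPM in IFN treated WT, 20.3 and 20.5 CPM in untreated USP18KO and 69.1 and 68.9 CPM in IFN treated USP18KO cells. The WT groups overlapped, and the treated USP18KO libraries stood apart. The log2 fold change was 0.21 in WT (SE 0.12, adjusted p = 0.64) and 1.76 in USP18KO cells (SE 0.11, adjusted p = 1.6e-24), and the difference was 1.54 (SE 0.17, adjusted p = 4.3e-12). The window 1242 bp into the first intron rose with it, by 1.36 (SE 0.13) in USP18KO cells.

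Deeper in the gene the same treatment lowered the mark. The region 14762 bp after the TSS (chr9:98104091-98105091, an intron) gave 21.2 and 21.1 CPM in untreated WT, 12.2 and 11.6 CPM in IFN treated WT, 24.7 and 27.8 CPM in untreated USP18KO and 5.95 and 7.79 CPM in IFN treated USP18KO cells. Treated libraries lay below untreated ones in both genotypes. It fell by 1.93 on the log2 scale in USP18KO cells (SE 0.16, adjusted p = 1.0e-18), and its log2 fold change in WT cells was -0.83 (SE 0.15, adjusted p = 1.5e-04), short of the fold threshold. The difference was -1.11 (SE 0.22, adjusted p = 8.9e-05). The other lower calls in USP18KO cells were the TRIM14 intronic regions 6604 bp (-1.03, SE 0.20) and 27311 bp (-1.24, SE 0.27) after the TSS and a region 10210 bp before it (-1.05, SE 0.18), which lies in an intron of CORO2A. With 1 library left out, the call at 6604 bp was lost in 2 fits (weakest value -0.80). The call 10210 bp before the TSS was lost in 1 such fit (-0.92). Of the 32-base words of the window at 6604 bp, 47.9% occurred elsewhere in hg38. A chain of 3 overlapping windows 10444 to 11156 bp after the TSS had log2 fold changes of -0.97 to -0.91 in USP18KO and -0.56 to -0.43 in WT cells and missed the fold threshold. This chain held an ISRE core at chr9:98108605-98108614, shown beside the promoter core because the changes around it were negative: aaaggatttaGAAAGTGAAAgctgtcacgt (minus strand, as the gene).

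**Figure D4:**
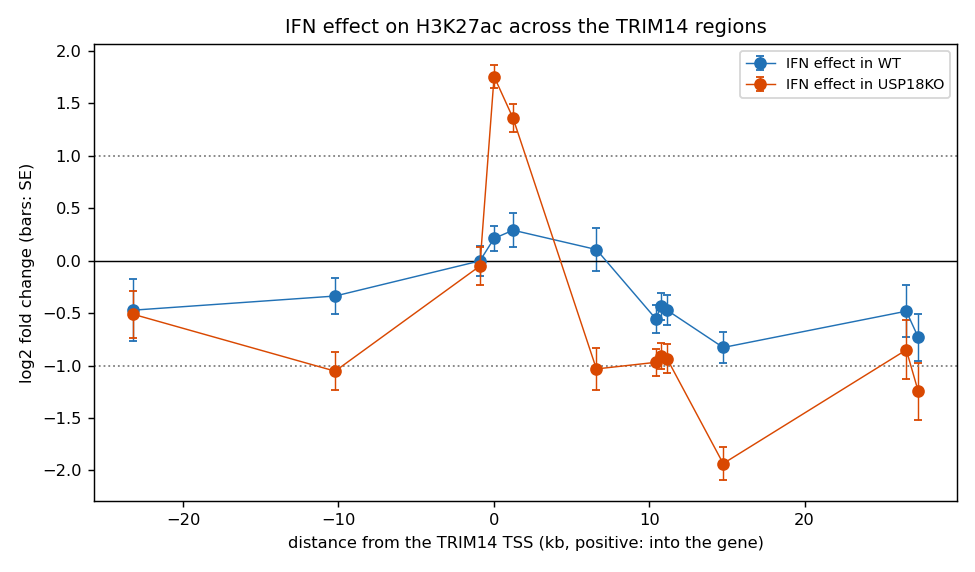
IFN effect (log2 fold change, SE bars) at the 12 TRIM14 regions against distance from the TSS in kb, in WT and USP18KO cells. The effect in USP18KO cells peaks at the TSS at 1.76 and is lowest 14762 bp into the gene at -1.93.

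Between untreated genotypes, few member regions differed. USP18KO cells had 5 higher (11.1%) and 2 lower (4.44%) regions of 45, against 5.66% and 10.8% of all regions tested. These counts are small, and overlapping windows among them share tags. All regions within 3000 bp of a TSS had a median log2 fold change of 0.30 in this comparison, beside -0.02 over all regions, and the members there had 0.42. TRIM34 at its TSS was higher by 1.73 (SE 0.50, adjusted p = 0.0040), but with WT_untreated replicate 1 left out this was 1.41 (adjusted p = 0.067).

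TRIM38 was the other gene with a higher promoter. Its window 193 bp before the TSS gave 7.85 and 9.08 CPM in untreated WT, 9.12 and 11.8 CPM in IFN treated WT, 16.5 and 17.6 CPM in untreated USP18KO and 27.3 and 28.4 CPM in IFN treated USP18KO cells. Genotypes did not overlap at either treatment. The log2 fold change of 1.00 between untreated genotypes (SE 0.16, adjusted p = 2.5e-07) lay at the threshold, and its call was lost under both other scalings of the counts, with 0.86 for the sum of counts, and under 4 further alternatives. Its TSS region had 0.77 (SE 0.14, adjusted p = 3.5e-06). Regions within 5 Mb of TRIM38 had a median of 0.02. An intronic region 8636 bp after the TSS went the other way, at 3.10 and 2.90 CPM in untreated WT and 1.92 and 0.770 CPM in untreated USP18KO cells (-1.12, SE 0.36, adjusted p = 0.0092), and this became -0.64 without USP18KO_untreated replicate 2.

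The TRIM14 window 895 bp before the TSS was the largest fall between untreated genotypes. It gave 21.4 and 20.0 CPM in untreated WT, 19.2 and 22.1 CPM in IFN treated WT, 7.77 and 10.5 CPM in untreated USP18KO and 7.54 and 10.0 CPM in IFN treated USP18KO cells. Genotypes separated fully and treatments overlapped. The difference between genotypes was -1.18 without IFN (SE 0.16, adjusted p = 2.1e-09) and -1.23 with it (SE 0.16, adjusted p = 3.7e-10), while the neighbouring TSS region had -0.19 (SE 0.12). Without USP18KO_untreated replicate 1 the untreated difference was -0.98. Of the 32-base words of this window, 36.3% occurred elsewhere in hg38, whereas in the 10 TSS regions at most 2.4% did. Farther upstream, a TRIM14 region in a CORO2A intron 23202 bp before the TSS was higher in untreated USP18KO cells, at 7.59 and 6.93 CPM against 3.41 and 3.45 CPM (1.08, SE 0.24, adjusted p = 1.5e-04).

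A pair of overlapping intergenic windows assigned to TRIM69, 48105 and 48501 bp after its TSS (chr15:44783967-44784967 and chr15:44784363-44785363), differed by genotype and by treatment. The first gave 1.55 and 0.726 CPM in untreated WT, 1.98 and 2.05 CPM in IFN treated WT, 2.62 and 3.56 CPM in untreated USP18KO and 13.8 and 11.1 CPM in IFN treated USP18KO cells. No 2 groups overlapped. It was higher in untreated USP18KO than in WT cells by 1.45 (SE 0.36, adjusted p = 5.9e-04) and rose with IFN by 2.02 in USP18KO cells (SE 0.23, adjusted p = 3.1e-12), and the second window had 1.15 (SE 0.34) and 2.01 (SE 0.23). Without WT_untreated replicate 2 the untreated differences were 0.98 and 1.00 and no longer called, and without USP18KO_untreated replicate 2 that of the second was 0.74. Both held the same ISRE core at chr15:44784611-44784620, which is shown as the only core in a distal region that rose: agtggaacatGAAAGTGAAAcaggagagtg (plus strand). The nearest protein-coding TSS in GENCODE release 44 was that of TRIM69, 25693 bp from the centre of the first window. Of the 32-base words, 34.6% in the first window and 44.7% in the second occurred elsewhere in hg38.

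**Figure D5:**
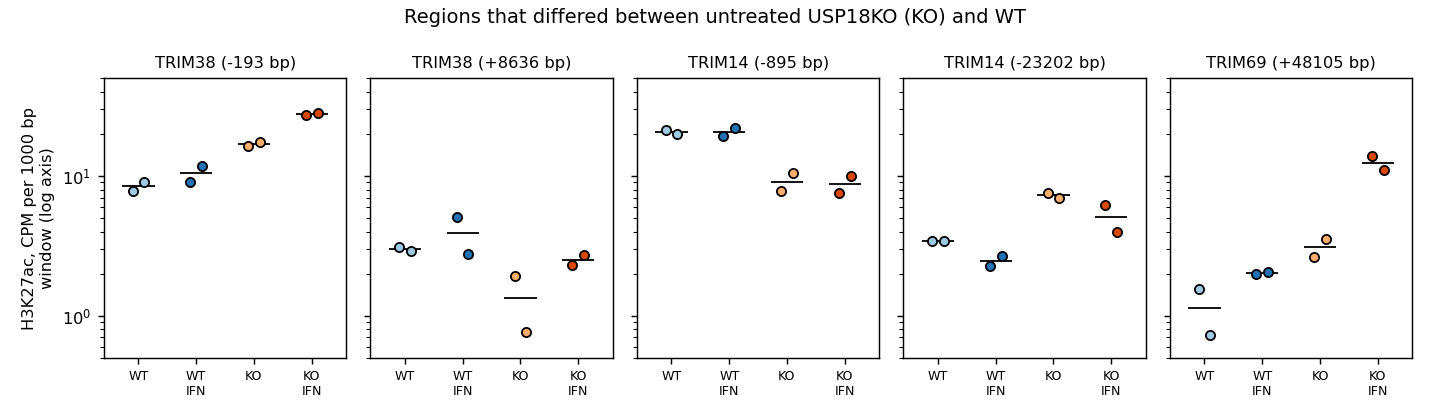
H3K27ac in CPM per 1000 bp window (log axis) at 5 regions that differed between untreated USP18KO and WT cells, with 1 point per library and a line at each group mean. TRIM14 at -895 bp separates by genotype at both treatments, at 19.2 to 22.1 CPM in WT and 7.54 to 10.5 CPM in USP18KO cells.

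With IFN in both genotypes, 20 of 45 member regions were higher and 2 lower in USP18KO than in WT cells, against 11.3% and 13.4% of all regions, and near the TSS 16 of 21 were higher, against 14.6%. All 10 TSS regions were called higher, by 1.29 (TRIM56) to 3.58 (TRIM34). The 2 lower regions were the TRIM14 window 895 bp before the TSS and the intronic one 27311 bp after it (-1.11, SE 0.28). This comparison shares libraries with those above, so the same values enter both.

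The order of levels also differed between groups. In untreated WT cells it ran, from the highest mean, TRIM56, TRIM14, PML, TRIM21, TRIM38, TRIM5, TRIM26, TRIM22, TRIM69 and TRIM34. TRIM56 overlapped TRIM14 in that group, and TRIM5 overlapped both TRIM26 and TRIM22. In IFN treated USP18KO cells the order ran TRIM21, TRIM56, PML, TRIM14, TRIM5, TRIM22, TRIM38, TRIM26, TRIM34 and TRIM69. TRIM21 and TRIM56, TRIM5 and TRIM22, and TRIM22 and TRIM38 overlapped there. TRIM38 stood second in untreated USP18KO cells and seventh after IFN.

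Other genes of these pathways were examined the same way within 50000 bp of their TSS. For 7 genes of the receptor and ISGF3, 62 regions were tested. With IFN in USP18KO cells 5 (8.06%) rose, in 4 genes, and 0 fell, against 7.14% and 4.28% of all regions. In WT cells 3 rose and 1 fell, against 0.344% and 0.0381%. Their median log2 fold change in USP18KO cells was -0.23, and the TSS of IFNAR1 and IFNAR2 had -0.21 and 0.02 there. The TSS of IRF9, the DNA-binding subunit of ISGF3, rose with IFN by log2 fold changes of 1.67 in WT and 2.08 in USP18KO cells. The difference of these effects, 0.42 (adjusted p = 0.098), was not called. STAT2, the partner that USP18 binds, rose by 1.52 in USP18KO cells with 0.33 in WT cells. Among signaling partners of the TRIM proteins, 13 of 67 tested regions rose and 2 fell with IFN in USP18KO cells, against 7.14% and 4.28% of all regions, and 3 rose in WT cells, against 0.344%. DDX58, the gene of the RNA sensor RIG-I, rose by 3.17 at its TSS in USP18KO cells and by 1.04 in WT cells, while MAVS, its adaptor, had -0.10 in USP18KO and -0.08 in WT cells.

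Among 6 genes of PML nuclear body partners, 12 of 37 tested regions rose in USP18KO cells, against 7.14% of all regions, and 1 rose in WT cells, against 0.344%. SP100, a constitutive body protein, rose by 1.73 at its TSS in USP18KO cells with 0.46 in WT cells, and DAXX, a histone chaperone held in the bodies, had -0.06 and -0.10. Of the 51 other TRIM genes with a region, 171 regions were tested. In USP18KO cells 6 (3.51%) rose and 1 (0.585%) fell, against 7.14% and 4.28% of all regions. In WT cells 0 were called, where 0.344% of all regions were called higher and 0.0381% lower. At shares that small, a count of 0 among 171 regions says little. The median log2 fold change of the 171 regions was 0.02 for IFN in USP18KO cells.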

How the data were processed

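H3K27ac ChIP-seq of 4 groups of 2 THP-1 libraries was analysed; the input and ATAC-seq data of the series were not used here. The authors mapped reads to hg38 with Bowtie2 and used HOMER to count the tags of each library in windows of 1000 bp centred on pooled ATAC-seq peaks (versions are not given in the sources used here). The deposited values are estimated counts, unnormalized tags of which 52.2% are whole numbers. They were rounded to whole counts, with values ending in 0.5 rounded up. A first run had rounded these to the even number. The setting was changed after its results were seen, so that counts over all regions follow an earlier analysis of this table; the closing section gives the values under both. The members and gene lists were chosen with earlier results of these data known.

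A region was tested where 2 or more of the 8 libraries had 10 counts or more (123276 regions). Tests used edgeR 4.0.16 and limma 3.58.1 in R 4.3.3, with TMM scaling, 1 mean per group and a quasi-likelihood fit over all regions (common biological coefficient of variation 0.0737). The SE is the log2 fold change divided by the square root of F. Calls needed more than 1 in size on the log2 scale with a Benjamini-Hochberg adjusted p under 0.05, as in the study's methods, which used DESeq2. Regions named by rule were, per gene, the tested region nearest the TSS and that with the smallest p for IFN in USP18KO cells, all regions called for IFN in WT cells, and the 3 largest rises and falls called between untreated genotypes (17 regions). Others were named after their values were seen. Alternatives covered scaling, DESeq2 1.42.0, filters, thresholds, distance, overlapping windows, the groups in the fit, a replicate block and leaving out each library. Steps were tested on simulated data. Motifs, repeated 32-base words and GENCODE release 44 annotation were read from hg38 with Python 3.11.15; the NF-kB motif was searched by a degenerate pattern. Each group had 2 libraries of 9046141 to 12935454 tags, so the spread was estimated by pooling information over regions. Some listed genes are not reported here.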

Additional observations from a re-analysis of the deposited data

Results flagged for a closer look

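The regions here stand out because the IFN effect differed between USP18KO and WT cells by a direct test of the difference, with an adjusted p under 0.05 and a log2 difference larger than 1 (quasi-likelihood test of edgeR, adjusted by the Benjamini-Hochberg method). The effect was larger in USP18KO cells at TRIM21 -61 bp from the TSS (log2 difference 1.82), TRIM22 126 bp (1.76), PML -14 bp (1.71), TRIM5 1269 bp (1.71), TRIM14 21 bp (1.54) and TRIM69 -811 bp (1.53). It was also larger at TRIM26 -726 bp (1.46), TRIM5 283 bp (1.45), TRIM5 6 bp (1.45), TRIM69 48501 bp (1.38), TRIM26 32 bp (1.36), PML 2440 bp (1.16), TRIM14 1242 bp (1.07) and TRIM56 10 bp (1.03). At TRIM14 it was lower in USP18KO cells 14762 bp (-1.11) and 6604 bp (-1.14) after the TSS. The overlapping TRIM5, TRIM26 and TRIM69 windows share tags and are not independent of each other. Of these 16 calls, 7 were lost under at least 1 alternative. Those at PML 2440 bp and TRIM69 48501 bp rested on few tags and were lost under DESeq2 (1.14 and 1.36), under scaling by the sum of counts and when most single libraries were left out. TRIM56 10 bp (0.90) and TRIM14 1242 bp (0.93) were lost under scaling by the sum of counts and by the tag totals, the first also without replicate 2 of any 1 group (down to 0.95), the second without WT_untreated replicate 2 (0.89) or USP18KO_IFN replicate 2 (0.91). TRIM14 6604 bp was lost without USP18KO_untreated replicate 2 (-0.98) or USP18KO_IFN replicate 2 (-0.92), TRIM14 14762 bp without USP18KO_IFN replicate 1 (-0.97) and TRIM5 1269 bp without WT_untreated replicate 2 (1.38).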

How the results depend on the processing

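With scaling by the sum of counts, the median of all regions was -0.14 for IFN in USP18KO and -0.16 between untreated genotypes. It was -0.27 between IFN treated genotypes and -0.13 for the difference of the effects. Under TMM these medians were -0.0064, -0.020, 0.0034 and 0.0083. Of the calls over all regions, the share that were higher fell from 62.5% to 48.6%, 34.4% to 22.7%, 45.7% to 26.6% and 65.0% to 49.4%. Among members this scaling gave 7 lower regions for IFN in USP18KO, 3 higher between untreated genotypes and 5 lower between treated ones, against 4, 5 and 2. With the adjusted p alone, counts were 7 higher and 2 lower for IFN in WT, 8 lower for IFN in USP18KO, 13 higher and 4 lower between untreated genotypes and 6 lower between treated ones. Within 10000 bp of the TSS they were 1 lower for IFN in USP18KO, 2 higher between untreated genotypes, and 1 lower each between treated genotypes and for the difference. With 1 window per chain of overlapping windows they were 3 higher and 1 lower between untreated genotypes and 1 lower between treated ones. DESeq2 gave 1 lower between untreated genotypes.

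Leaving out 1 library gave 1 to 3 higher regions for IFN in WT, with 1 both without WT_untreated replicate 1 and without WT_IFN replicate 2. It gave 3 to 5 higher regions between untreated genotypes, with 3 without either WT_untreated replicate or USP18KO_untreated replicate 2, and 1 to 2 lower, with 1 without either USP18KO_untreated replicate. Lower differences of the effects numbered 1 to 2, with 1 without USP18KO_untreated replicate 2 or either USP18KO_IFN replicate. Signs turned in 29 values of 12 results, none of them called before or after. Leaving out 1 library gave these ranges: between untreated genotypes TRIM34 147 bp -0.060 to 1.37, TRIM69 -811 bp -0.040 to 0.64 and TRIM5 1269 bp -0.43 to 0.37, for IFN in WT TRIM38 8636 bp -0.11 to 0.75, PML 2440 bp -0.43 to 0.30 and TRIM14 -895 bp -0.10 to 0.094, and for IFN in USP18KO TRIM14 -895 bp -0.29 to 0.18. For the difference they were TRIM38 8636 bp -0.0030 to 1.27, TRIM34 147 bp -0.47 to 0.96, TRIM34 -132 bp -0.34 to 0.20, TRIM14 -23202 bp -0.46 to 0.21 and TRIM14 -895 bp -0.30 to 0.18. The other sign changes were TRIM14 -895 bp for IFN in WT, at 0.0017 when scaled by the sum of counts, 0.0026 under DESeq2 and 0.015 with only the compared groups in the fit, and TRIM5 1269 bp between untreated genotypes, at -0.10 when scaled by the sum and -0.010 by the tag totals. The cause was not tested.

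Same-numbered replicates were not paired in the main fit. Their deviations correlated by 0.0019 to 0.058, which does not settle whether they were paired in the experiment. With the replicate block, IFN in WT gave 3 and IFN in USP18KO 19 higher member regions, as without it, and no member count changed. Rounding values ending in 0.5 to the even number, added after seeing the data, left every member count as it was, with 423 against 424 higher regions for IFN in WT over all regions and 5434 against 5278 lower for IFN in USP18KO. At TRIM34 -59 bp it moved IFN in WT from 2.03 to 2.20, the untreated genotypes from 1.73 to 1.89 and the difference from 1.85 (adjusted p = 0.059) to 1.68 (adjusted p = 0.12). Of 2291 alternative values of named regions, 2178 kept direction and call, 65 lost the call, 19 gained it and 29 changed sign. Regions under about 2 CPM rest on about 20 tags or fewer per library.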
